A study of Mus musculus with 2 samples.

Results

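Imprinted growth regulators, genes that are read mainly from 1 parental allele and act on embryonic growth, were followed through single cells of the mouse aorta-gonad-mesonephros (AGM) region, the site where the first haematopoietic stem cells arise. The 10 genes were H19, Igf2, Cdkn1c, Dlk1, Meg3, Peg3, Mest, Igf2r, Grb10 and Plagl1, chosen by name out of 31053 genes in the count matrices, and all 10 were measured. Cells were cell barcodes with at least 2000 unique molecular identifiers (UMIs, counted transcripts) of which under 10% came from mitochondrial genes. That gave 8253 cells from PDGFRβ+/+ (WT) and 8165 cells from PDGFRβ-/- (KO) embryos at embryonic day (E) 11, with a median of 13321 and 12391 UMIs per cell. The KO line was kept as heterozygotes on a C57BL/6J background. The tissue was dissociated with collagenase and loaded on the 10x Chromium without a sort. The number of embryos behind each library and their sex are not given in the sources used here. The study asked what the loss of PDGFRβ, the receptor for platelet-derived growth factor B on perivascular and mesenchymal cells, does to the niche of the stem cells.

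Genomic imprinting marks a gene in the egg or the sperm, so that the embryo later uses 1 copy. In the classical view, paternally read genes such as Igf2, Dlk1, Peg3, Mest and Plagl1 favour growth or keep progenitors immature, while several maternally read genes (H19, Cdkn1c, Meg3, Igf2r and Grb10) restrain it. Many of them are high in the embryo and fall after birth. The counts do not tell the parental alleles apart, so every level below is a sum over both.

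There was 1 library per genotype, so no test between genotypes was possible. Levels are UMIs per 1000000 summed UMIs of a population (CPM), and intervals are exact 95% intervals that cover counting error only. A ratio at or past 0.5 on the log2 scale was called past the fold, for genes with at least 50 UMIs over both libraries. Pdgfrb itself was at 43.1 CPM in the WT and 7.09 CPM in the KO library. The libraries also differed in sex, since Xist was at 793 CPM (WT) and 0.415 CPM (KO) while 4 Y-linked genes summed to 0.0266 and 163 CPM. Genotype, sex, embryo and library cannot be told apart in any ratio given here. Cells were placed in 12 classes by 6 gate genes each, with at least 3 detected. The 36 marker genes not used in the gate were highest in their own class in 57 of 72 checks. The exceptions were Cd163, which was at or near 0 in macrophages, Smtn, Synpo2, Gata6, Bmp4, Krt8 and Nr5a1 in at least 1 library, and Lum, Dcn and Postn, which did not mark the remaining mesenchyme best. "Other mesenchyme" is therefore only a remainder with collagen and Twist1 or Prrx1 transcripts. The libraries shared 20 barcodes.

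Over all cells, Cdkn1c was the 1 member of 10 past the fold. It was at 1267 CPM (WT) and 1945 CPM (KO), a log2 ratio of 0.62 (0.61 to 0.63). For comparison, 16.3% of 16113 genes were past the same fold, so a count of 1 in 10 lies near the background. The median log2 ratio was -0.02 over the members and 0.06 over all genes. Meg3 came next in size, with 796 CPM (WT) and 1092 CPM (KO), a log2 ratio of 0.46. H19 was at 722 and 838 CPM (0.22), and Igf2 at 28.9 and 33.0 CPM (0.19). On the lower side stood Plagl1 with 175 CPM (WT) and 135 CPM (KO) (-0.37), and Dlk1 with 393 and 321 CPM (-0.29). Peg3 (-0.08), Mest (-0.05), Igf2r (-0.10) and Grb10 (0.01) differed by little. Of the 5 maternally read members 4 were higher in the KO library, against 1 of the 5 paternally read ones. Grb10 is among these 4, with an interval that included 0 (-0.01 to 0.02). By the mean of the ratios within classes, macrophages and erythroid cells included, Cdkn1c (0.24) and Meg3 (0.05) were higher in KO and the others lower. By the median of the same ratios, Igf2 (0.02) and Igf2r (0.03) were higher as well.

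Within classes, 105 pairs of member and class could be compared in 11 classes of at least 50 cells in both libraries. The epithelial class, with 15 and 19 cells, was left out. The fold was passed by 28 pairs, 6 of them higher and 22 lower in KO. The background share past the fold was 13.4% in macrophages, 28.6% in erythroid cells, 14.8% in endothelium, 12.7% in Schwann precursors, 17.7% in sympathetic neuronal cells, 13.9% in myogenic cells, 13.2% in coelomic cells, 12.1% in sclerotome, 14.5% in smooth muscle, 12.9% in splanchnic mesenchyme and 11.9% in other mesenchyme. Macrophages and erythroid cells held 9 of the 28 pairs. In those classes the members stood at 2.43 to 22.1% of their level in free RNA, measured in barcodes of 100 or fewer UMIs, and 3 collagen genes that blood cells should lack stood at 4.60 to 19.4%. Levels within that range are read as background. H19 in WT erythroid cells lay above it, at 22.1% against 9.02% for the collagens of the same class. It had a UMI in 608 of 703 WT cells. H19 in KO erythroid cells lay within the range, at 13.02%, but also above the collagens of its own class (4.60%). The other members of KO erythroid cells were above 4.60% too, Meg3 at 13.6%, except Igf2 (2.76%) and Igf2r (2.43%). In WT erythroid cells Grb10 (13.1%) and Peg3 (12.2%) were farthest above 9.02% after H19. The range spans both classes and libraries, so it does not settle whether these levels are background. The H19 ratio (177 and 100.01 CPM, -0.83) stayed past the fold under 14 of 14 settings, and was -2.01 with free RNA subtracted. The 3 collagen genes were also lower in KO erythroid cells (127 and 54.8 CPM). Whether the H19 ratio follows that of the collagens was not tested. The other 9 classes held 19 pairs past the fold, 5 higher and 14 lower in KO.

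**Figure D1:**
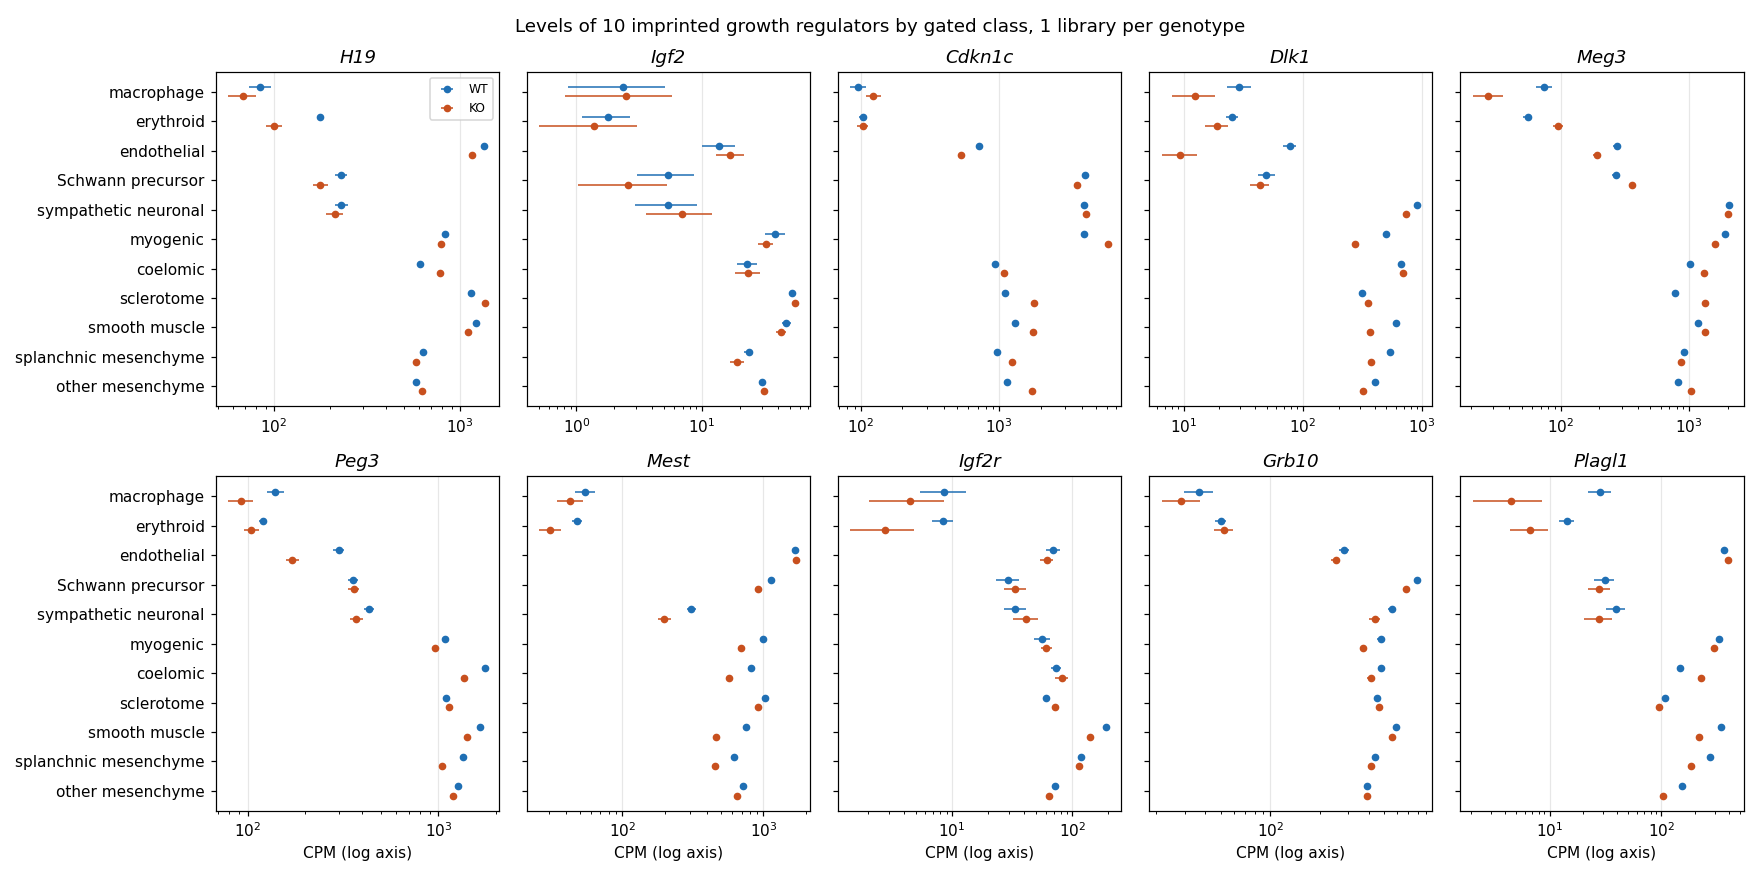
Level of each member in CPM (log axis, a separate range per gene) in 11 gated classes, WT in blue and KO in orange, 1 library each. Bars are exact 95% Poisson intervals of the summed counts; macrophages and erythroid cells are at or near the lowest level of every member, while the class with the highest level changes from gene to gene.

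The insulin-like growth factor (IGF) axis is the main growth route that imprinted genes touch. IGF2 is its fetal ligand, IGF2R takes IGF2 up for destruction in lysosomes, and GRB10 is an adaptor that dampens signalling from the insulin and IGF1 receptors. H19, next to Igf2 on the chromosome, is a non-coding RNA whose precursor also gives a microRNA. H19 lies at chr7:142575529-142578143 and Igf2 at chr7:142650766-142666816, both on the minus strand (GRCm38) and 72.6 kb apart.

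H19 was highest in WT endothelium at 1348 CPM, followed by smooth muscle at 1214 CPM and sclerotome at 1151 CPM. In KO the order changed, with sclerotome first at 1363 CPM, endothelium at 1153 CPM and smooth muscle at 1099 CPM. Schwann precursors (230 and 178 CPM) and sympathetic neuronal cells (230 and 212 CPM) held far less. H19 was higher in KO in 3 of 11 classes, coelomic cells (0.35), sclerotome (0.24) and other mesenchyme (0.12), and none outside the blood classes passed the fold. The higher level over all cells sat beside lower values in 8 of 11 classes. The classes with higher values include the largest ones, other mesenchyme (2600 WT and 2780 KO cells) and sclerotome (1268 and 1975 cells). Leaving the sizes of the classes out, the mean of the class ratios was -0.14. That mean includes macrophages (-0.32) and erythroid cells (-0.83). Sclerotome, a class of high H19, held 15.4% of the WT cells and 24.2% of the KO cells. The part of class sizes in the H19 ratio over all cells was not tested.

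Igf2 was measured at a low level everywhere, with 52.1 CPM in sclerotome of the WT and 55.1 CPM in that of the KO library as its highest values. Sympathetic neuronal cells (5.40 and 6.88 CPM) and Schwann precursors (5.33 and 2.57 CPM) were at the low end outside blood. None of 7 comparable classes passed the fold, and the intervals of 6 of them included 0. The level of Igf2 has a limit in the counting. The read-through gene Gm49394 on the same strand shares 62.8% of the exonic bases of Igf2, and Cell Ranger counts a read only where it falls to 1 gene. Gm49394 itself received 3 and 5 UMIs. The part of this overlap in the low Igf2 level was not tested. Across the 22 profiles of class and library, the pattern of H19 resembled that of Igf2 (r = 0.91 on log2(CPM + 1)), as a description over profiles that share libraries and depth. It resembled that of Plagl1, on another chromosome, as much (r = 0.91). The profiles include macrophages and erythroid cells, low for every member.

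Igf2r (chr17:12682406-12769664, minus strand) was highest in smooth muscle, at 193 CPM (WT) and 139 CPM (KO), a log2 ratio of -0.47. Splanchnic mesenchyme followed with 119 and 115 CPM. In WT every other class lay under 80 CPM, and Schwann precursors (29.0 and 33.5 CPM) and sympathetic neuronal cells (33.5 and 41.3 CPM) were lowest outside blood. No class outside blood passed the fold for Igf2r in the main setting. In smooth muscle its ratio was -0.82 when KO cells with a Pdgfrb UMI were left out, and -0.14 under 5% mitochondrial UMIs. The paper lists Igf2r, and also Igf1r, as significantly lower in the KO cluster it matched to all WT PDGFRβ+ cells, tested over single cells. Grb10 (chr11:11930508-12038683, minus strand) varied least among the members over WT classes outside blood, from 283 CPM in WT endothelium to 788 CPM in WT Schwann precursors. Its ratio between the libraries was past the fold in no class, and ranged from -0.37 in macrophages to 0.06 in erythroid cells. Its 3 most similar profiles among 13579 genes were Nedd4 (r = 0.98), Cttn (0.97) and Purg (0.97).

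A list of 12 genes held Igf1, the receptors Igf1r and Insr, the binding proteins Igfbp2 to Igfbp7 and the mRNA-binding proteins Igf2bp1 to Igf2bp3. Of these 12 genes 1 was past the fold over all cells, beside 16.3% of all genes. It was Igfbp7, a secreted binding protein, with 12.7 CPM (WT) and 7.40 CPM (KO) (-0.78). Igfbp2 lay just inside the fold (78.4 and 111 CPM, 0.498), and Igfbp6 was at 1.48 and 1.09 CPM (-0.45). Igf1 was at 89.7 and 105 CPM, and its receptor Igf1r at 97.0 and 98.6 CPM.

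Cdkn1c encodes p57, an inhibitor of cyclin-dependent kinases that holds cells out of the cycle as they differentiate. It lies at chr7:143458339-143461050 on the minus strand (GRCm38), in a second imprinted domain of the chromosome that holds H19. In WT it was highest in 3 classes, Schwann precursors at 4182 CPM, myogenic cells at 4142 CPM and sympathetic neuronal cells at 4079 CPM, which differ by little. Every mesenchymal class lay between 960 and 1303 CPM, and WT endothelium was at 711 CPM. In KO myogenic cells it reached 6125 CPM, well above sympathetic neuronal cells at 4240 CPM and Schwann precursors at 3684 CPM.

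Cdkn1c was higher in KO in 9 of 11 classes. Sclerotome showed the largest ratio, from 1099 CPM (WT) to 1792 CPM (KO) (0.71, interval 0.68 to 0.73). Other mesenchyme went from 1139 to 1721 CPM (0.60) and myogenic cells from 4142 to 6125 CPM (0.56). Smooth muscle (1303 and 1765 CPM, 0.44) and splanchnic mesenchyme (960 and 1247 CPM, 0.38) lay in the same direction below the fold. The 2 classes with lower values in KO were endothelium (711 and 526 CPM, -0.43) and Schwann precursors (4182 and 3684 CPM, -0.18). Endothelial cells with 4 to 6 gate genes were at 583 and 496 CPM. Each ratio turned under 1 setting, endothelium to 0.21 by the mean of per-cell CPM and Schwann precursors to 0.30 with 2 gate genes. The sclerotome and other mesenchyme ratios stayed past the fold under all 15 alternative settings. The myogenic ratio stayed past it under 9 of 14. The mean over the 11 classes, blood included, was 0.24, lower than the ratio over all cells. Erythroid cells, which hold almost none, were 703 in WT and 205 in KO. The part of class sizes in the Cdkn1c ratio over all cells was not tested.

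The same direction was seen inside finer groups. Sclerotome cells with an Uncx UMI, a factor of the posterior somite, went from 972 to 1626 CPM, and those without from 1271 to 2017 CPM. Myogenic cells with a Myog UMI, a factor of terminal differentiation, went from 4976 to 7313 CPM, and those without from 2179 to 2947 CPM. Cells with Myog thus held more Cdkn1c than those without in both libraries. Mesenchymal and sclerotome cells without a Pdgfrb UMI went from 1078 to 1718 CPM, and those with one from 1133 to 1581 CPM. Pdgfrb is the deleted gene, so these groups do not hold like cells in WT and KO. Over all cells, 5464 of 8253 WT and 7364 of 8165 KO cells had no Pdgfrb UMI. The paper took KO cells with detected PDGFRβ out of its own data, and they are kept here.

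Counted per cell after thinning each cell to 2000 UMIs, the share with at least 4 Cdkn1c UMIs was 19.6% of 1268 WT and 39.3% of 1975 KO sclerotome cells. In other mesenchyme it was 23.5% and 38.6%, and in myogenic cells 72.7% and 88.1%. The share of sclerotome cells with any Cdkn1c UMI was 80.5% in WT (78.2 to 82.7%) and 89.7% in KO (88.3 to 91.0%) after thinning, and 99.4% and 99.6% before it. Erythroid cells, which should lack the gene, showed 10.2% and 10.7% after thinning, at median depths of 16463 and 19497 UMIs against 13368.5 and 12605 in sclerotome. The difference was thus one of many cells and not of a few: the 1 cell richest in Cdkn1c held 1.7% of the sclerotome UMIs in WT and 0.53% in KO.

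In sclerotome and other mesenchyme of both libraries, cells with at least 4 Cdkn1c UMIs held fewer G2 and M phase transcripts than others. In no other class did both libraries show this beyond the intervals. A list of 12 G2 and M phase genes, which encode mitotic proteins, was summed over cells grouped by their Cdkn1c UMIs in 2000. In WT sclerotome the list stood at 2842 CPM in cells with no Cdkn1c UMI, 2981 CPM at 1 to 3 and 1954 CPM at 4 or more. In KO sclerotome it stood at 3068, 2615 and 2296 CPM. KO other mesenchyme went from 2853 to 2392 and 1953 CPM. Of 16 pairs of class and library with at least 10 cells at 1 to 3 and at 4 or more UMIs, 10 were lower at 4 or more, 3 were higher and in 3 the intervals overlapped. A list of 10 S phase genes was lower at 4 or more in 8 of the 16, higher in 3 and overlapped in 5. WT coelomic cells had 986 and 1315 CPM of it, and WT sclerotome 1103 and 1089 CPM. For the G2 and M list, KO coelomic cells ran the other way, from 2464 to 3093 CPM, and KO Schwann precursors from 1804 to 2346 CPM. In WT these classes went down, coelomic cells from 2413 to 1498 CPM and Schwann precursors from 2010 to 1557 CPM. Sympathetic neuronal cells went up in WT (1528 to 1858 CPM) and down in KO (3159 to 1983 CPM). Cells are not replicates, so these are values of 2 libraries. The intervals behind these counts cover counting error of pooled UMIs and not the spread between cells. Some groups were small, such as 20 WT and 23 KO coelomic cells at 4 or more.

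**Figure D2:**
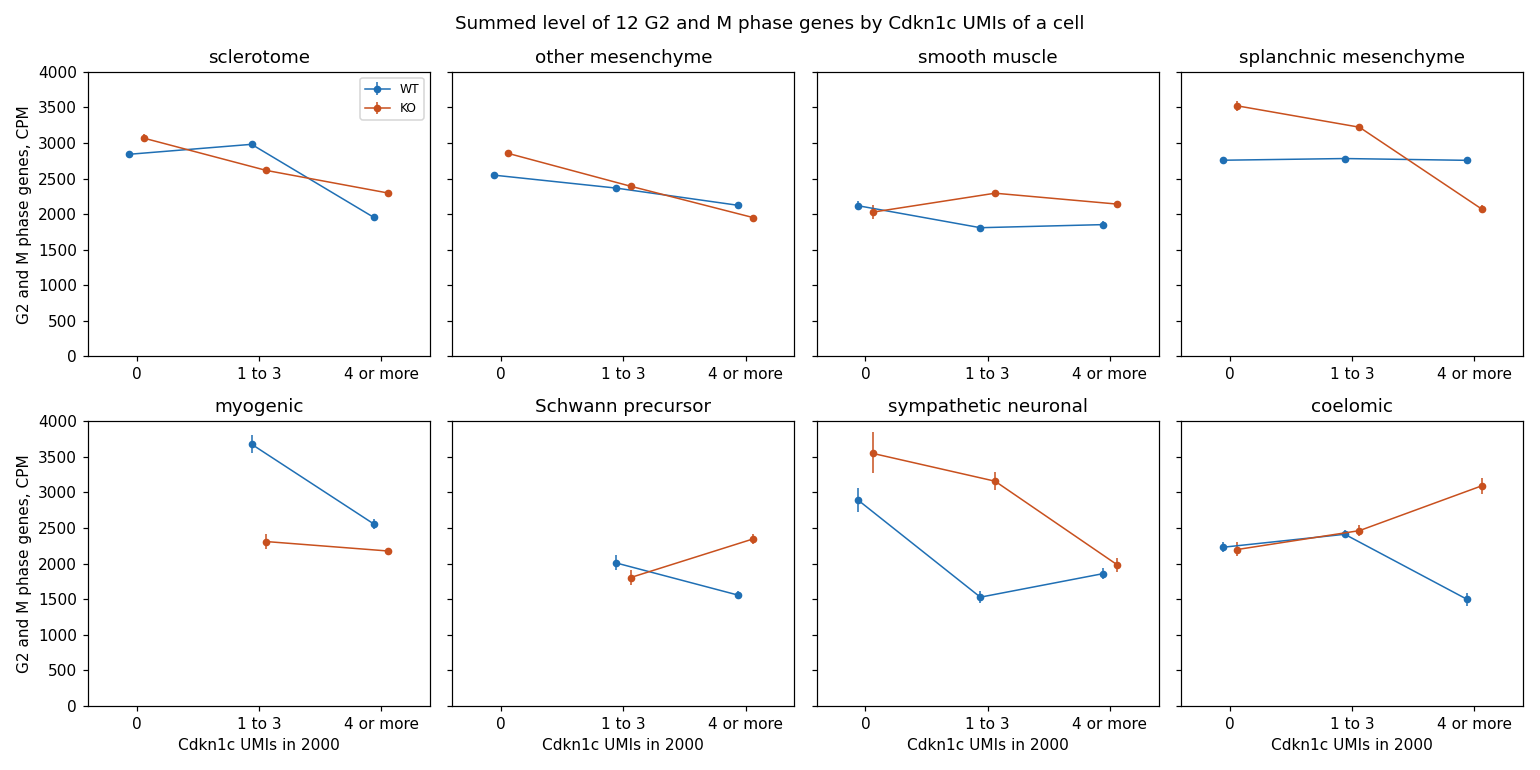
Summed level of 12 G2 and M phase genes (CPM) in cells grouped by Cdkn1c UMIs after thinning to 2000, in 8 classes, WT in blue and KO in orange. Bars are exact 95% Poisson intervals and groups under 10 cells are not drawn; the line goes down to 1954 in WT and 2296 in KO sclerotome, and up to 3093 in KO coelomic cells.

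Over whole classes, the higher Cdkn1c of the KO library went with no common direction of that list. It was at 2744 CPM in sclerotome of the WT and 2525 CPM in that of the KO library, at 2917 and 2200 CPM in myogenic cells, and at 1880 and 2202 CPM in smooth muscle. None of the 12 genes nor of 10 S phase genes was past the fold over all cells. Among the other CDK inhibitors, 2 of 5 were past it on the higher side, beside 16.3% of all genes past it in either direction. They were Cdkn1a (p21, 13.7 and 22.3 CPM, 0.70) and Cdkn2b (p15, 0.386 and 0.717 CPM, 0.89, from 58 and 102 UMIs). Cdkn2c (p18, 3.66 and 2.45 CPM, -0.58) was past it on the lower side. By class Cdkn1a was higher in KO in 7 and lower in 4 (-2.07 to 2.06). Where both libraries had UMIs, Cdkn2b was higher in 4 and lower in 1, and Cdkn2c higher in 5 and lower in 5. Cdkn1b (p27) was at 30.6 and 32.7 CPM.

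Kcnq1ot1, the paternally read antisense RNA of the domain that holds Cdkn1c, was also past the fold, with 501 CPM (WT) and 737 CPM (KO) (0.56). It was higher in KO in 10 of 11 classes, most in smooth muscle (469 and 712 CPM, 0.60). Phlda2, a maternally read growth restrainer of the same domain, was at 8.48 and 5.06 CPM (-0.74) over all cells. By class it was higher in KO in 5 and lower in 4 of the 9 classes with UMIs in both libraries. Its ratios ran from -2.14 to 0.89, with as few as 2 UMIs in some classes. Phlda2 was at 29.9 and 6.79 CPM in smooth muscle (-2.14) and at 2.28 and 3.25 CPM in sclerotome (0.51). Of other nuclear RNAs, Malat1 was at 8310 and 7848 CPM (-0.08) over all cells, at 9859 and 9699 CPM in sclerotome (-0.02), and lower in KO in endothelium (-0.56), sympathetic neuronal (-0.52), coelomic (-0.47) and myogenic cells (-0.43). Neat1 was at 9.14 and 9.30 CPM over all cells and at 1.72 and 5.29 CPM in sclerotome (1.62). The part of nuclear RNA content in the ratios of Kcnq1ot1, Cdkn1c and Meg3 was not tested. Mitochondrial transcripts took 5.35% and 5.70% of the UMIs.

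Dlk1 and Meg3 are neighbours read from opposite parental alleles under 1 imprinting control region. DLK1 is a membrane protein of progenitor cells that inhibits their differentiation, and Meg3 is a long non-coding RNA at the head of a large cluster of non-coding transcripts. Dlk1 lies at chr12:109452823-109463336 and Meg3 at chr12:109541001-109571726, both on the plus strand and 77.7 kb apart (GRCm38). Their promoters are shown because the data set the 2 genes side by side. Each line gives the 250 bases before a RefSeq start, the only one of Dlk1 and the first of 2 of Meg3, at chr12:109452573-109452822 and chr12:109540746-109540995 on the plus strand (GRCm38.p6), 5′ to 3′, with CpG dinucleotides, the letters that imprinting marks by methylation, in capitals.
Dlk1: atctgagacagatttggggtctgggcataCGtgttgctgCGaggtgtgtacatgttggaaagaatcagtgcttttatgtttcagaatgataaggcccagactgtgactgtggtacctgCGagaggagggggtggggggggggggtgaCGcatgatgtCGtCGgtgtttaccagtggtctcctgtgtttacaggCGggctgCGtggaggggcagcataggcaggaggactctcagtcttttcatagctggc
Meg3: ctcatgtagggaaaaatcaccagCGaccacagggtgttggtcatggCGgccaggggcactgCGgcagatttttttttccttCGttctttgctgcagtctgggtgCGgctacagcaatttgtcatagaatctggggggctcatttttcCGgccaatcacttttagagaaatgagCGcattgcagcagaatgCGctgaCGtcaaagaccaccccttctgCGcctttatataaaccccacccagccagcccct
The Dlk1 window holds 8 CpG and this Meg3 window 10, against a median of 6 over 32817 promoters of the same length. The window before the second Meg3 start (chr12:109545148-109545397) holds 0. Methylation was not measured here.

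Both genes were highest in sympathetic neuronal cells. Dlk1 stood there at 914 CPM (WT) and 727 CPM (KO), followed in WT by coelomic cells (661 CPM), smooth muscle (607 CPM) and splanchnic mesenchyme (541 CPM). Endothelium (77.7 and 9.33 CPM) and Schwann precursors (49.3 and 43.4 CPM) were lowest outside blood. Meg3 stood at 2043 and 2014 CPM in sympathetic neuronal cells, at 1889 and 1576 CPM in myogenic cells, and at 272 and 192 CPM in endothelium. Across the 22 profiles of class and library their levels followed each other (r = 0.92). The profiles include macrophages and erythroid cells, low for both. Peg3, on another chromosome, gave r = 0.87 with Dlk1 and 0.85 with Meg3.

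Between the libraries they parted. The log2 ratio of Meg3 lay above that of Dlk1 in 10 of 11 classes, all but macrophages. Among the 10 were endothelium, where Dlk1 rested on few cells, and erythroid cells, whose levels are within the background range. Meg3 in KO erythroid cells stood at 13.6% of free RNA, above the collagens of that class (4.60%). Outside blood Meg3 was higher while Dlk1 was lower in KO in 3 classes, Schwann precursors, smooth muscle and other mesenchyme. The Dlk1 ratio of Schwann precursors (-0.19) turned under 4 of 13 settings. Meg3 in smooth muscle and Dlk1 in other mesenchyme each turned under 1 of 15. Sclerotome gave the largest Meg3 difference outside blood, from 778 CPM (WT) to 1326 CPM (KO) (0.77, interval 0.74 to 0.80), while Dlk1 went from 314 to 352 CPM (0.16). Meg3 in sclerotome stayed past the fold under all 15 alternatives. Other mesenchyme (812 and 1037 CPM, 0.35) and coelomic cells (1010 and 1303 CPM, 0.37) lay in the same direction, and splanchnic mesenchyme (-0.08) and myogenic cells (-0.26) did not.

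Dlk1 was lower in KO in 9 of 11 classes. In smooth muscle it went from 607 CPM (WT) to 366 CPM (KO) (-0.73, interval -0.79 to -0.67), past the fold under all 15 alternatives. In splanchnic mesenchyme it went from 541 to 370 CPM (-0.55) and in myogenic cells from 499 to 274 CPM (-0.87). When 4 gate genes were required, the splanchnic value was -0.27 and the myogenic value turned to 0.41. In myogenic cells, 1 cell held 10.7% of the WT Dlk1 UMIs. The endothelial ratio was the largest in size, -3.06, and rested on very few cells: 2 of 100 WT cells held at least 50% of the 250 WT UMIs, 1 of them 45.6%, and KO had 36 UMIs in 84 cells. The 87 WT and 77 KO cells of the class with 4 to 6 gate genes held 72 and 24 UMIs, or 25.2 and 6.38 CPM. Requiring 4 genes in every class, which also changes which cells are set aside as mixed, gave -0.02. In mesenchymal and sclerotome cells with a Pdgfrb UMI, Dlk1 went from 482 CPM (WT) to 307 CPM (KO), and in those without from 376 to 351 CPM. The groups are split by the deleted gene and do not hold like cells in the libraries.

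**Figure D3:**
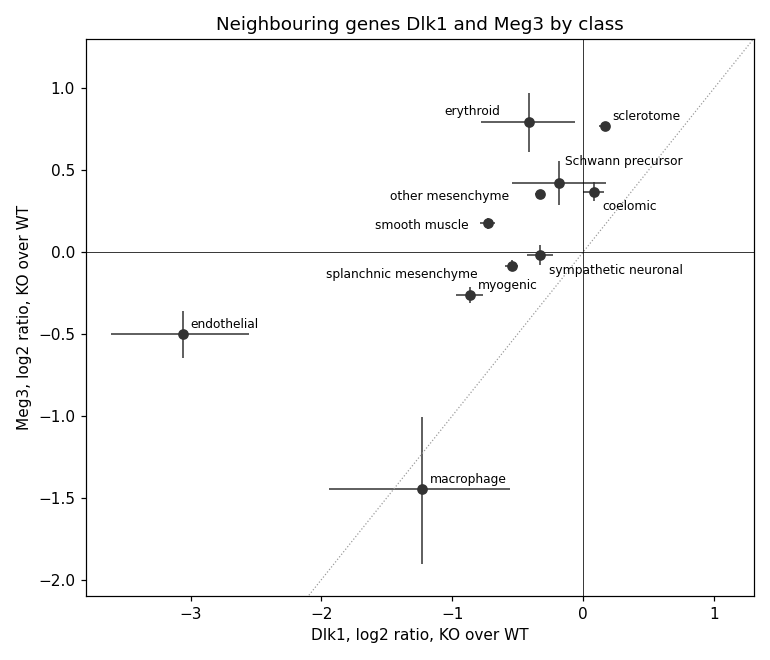
Log2 ratio of KO over WT for Dlk1 (x axis) and Meg3 (y axis) in 11 classes, with exact 95% intervals for counting error. The dotted line marks equal ratios; 10 of 11 classes lie above it, sclerotome at 0.16 and 0.77 and endothelium farthest left at -3.06.

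The 2 genes with the profile most like that of Meg3, among 13579, were B830012L14Rik (r = 0.98), 123.9 kb beyond its end, and Gm26945 (r = 0.96), 68.6 kb beyond it. Mirg, another transcript of the cluster, was the third for Dlk1 (r = 0.94), after Dcaf12l1 (0.95) and Pycr1 (0.95), and not among the first 3 for Meg3. Airn, the antisense RNA over Igf2r, was the third for Igf2r (r = 0.95), and Igf2os, which overlaps Igf2 on the other strand, was first for H19 (r = 0.93). Igf2os was also first for Plagl1 (r = 0.92), which lies on another chromosome. For Cdkn1c the second was Mkrn3 (r = 0.95), an imprinted gene in another domain, after Klhl13 (0.95).

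PLAGL1 (also ZAC1) is a zinc finger factor that restrains proliferation and acts on other imprinted genes. PEG3 is a large zinc finger protein, and MEST a membrane protein of the hydrolase fold, named for its expression in mesoderm. They lie at chr10:13060504-13131694 (plus strand), chr7:6703892-6730431 (minus strand) and chr6:30723547-30748465 (plus strand, GRCm38). All are read from the paternal allele.

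Plagl1 was highest in endothelium, at 359 CPM (WT) and 394 CPM (KO), and there the libraries differed by little (0.14). Smooth muscle (340 CPM) and myogenic cells (326 CPM) came next in WT, and Schwann precursors (31.0 CPM) and sympathetic neuronal cells (38.9 CPM) were lowest outside blood. In KO it was lower in 9 of 11 classes. Smooth muscle went from 340 to 215 CPM (-0.66), past the fold under all 15 alternatives. Splanchnic mesenchyme went from 274 to 182 CPM (-0.59), and was at -0.16 when 4 gate genes were required. Other mesenchyme went from 153 to 103 CPM (-0.56). Coelomic cells went the other way, from 147 to 227 CPM (0.62), with 16.6% of the WT and 14.1% of the KO UMIs in 1 cell. That value was -0.01 when the 5% of cells with the most UMIs were left out.

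Mest was highest in endothelium as well, at 1676 CPM (WT) and 1701 CPM (KO), followed by Schwann precursors (1124 and 922 CPM) and sclerotome (1025 and 916 CPM). It was lower in KO in 10 of 11 classes, all but endothelium. Smooth muscle went from 752 to 462 CPM (-0.70), past the fold under all 15 alternatives. Sympathetic neuronal cells (308 and 198 CPM, -0.64), coelomic cells (819 and 570 CPM, -0.52) and myogenic cells (998 and 696 CPM, -0.52) were also past it. Over all cells Mest differed by only -0.05. Sclerotome, a class where it is high, held a larger share of the KO cells. Erythroid cells, where it was lowest, were 703 in WT and 205 in KO. The part of class sizes in the Mest ratio over all cells was not tested.

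Peg3 was highest in coelomic cells (1752 CPM) and smooth muscle (1652 CPM) in WT and in the same 2 classes in KO (1366 and 1404 CPM). It was lower in KO in 9 of 11 classes, outside blood past the fold only in endothelium (300 and 172 CPM, -0.81), where it was -0.09 once cells with a Pdgfrb UMI were left out of both libraries. Of the 8 members with a RefSeq promoter, Peg3 was the 1 whose 250 bases before the start held GGGGCCCC, a GC-rich element that PLAGL1 is known to bind and whose reverse complement is itself. It is shown for that reason, from chr7:6730420-6730669 on the minus strand (GRCm38.p6), with the element in capitals.
Peg3: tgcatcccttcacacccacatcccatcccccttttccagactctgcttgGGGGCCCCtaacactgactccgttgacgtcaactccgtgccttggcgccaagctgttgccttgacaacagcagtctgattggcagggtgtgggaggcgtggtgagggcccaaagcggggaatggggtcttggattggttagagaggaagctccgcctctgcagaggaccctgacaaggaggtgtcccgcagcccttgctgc
The element is in 0.884% of 32817 promoter windows of that length. A match is a description of letters and not a bound site. H19 and Cdkn1c had no entry in the promoter table.

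**Figure D4:**
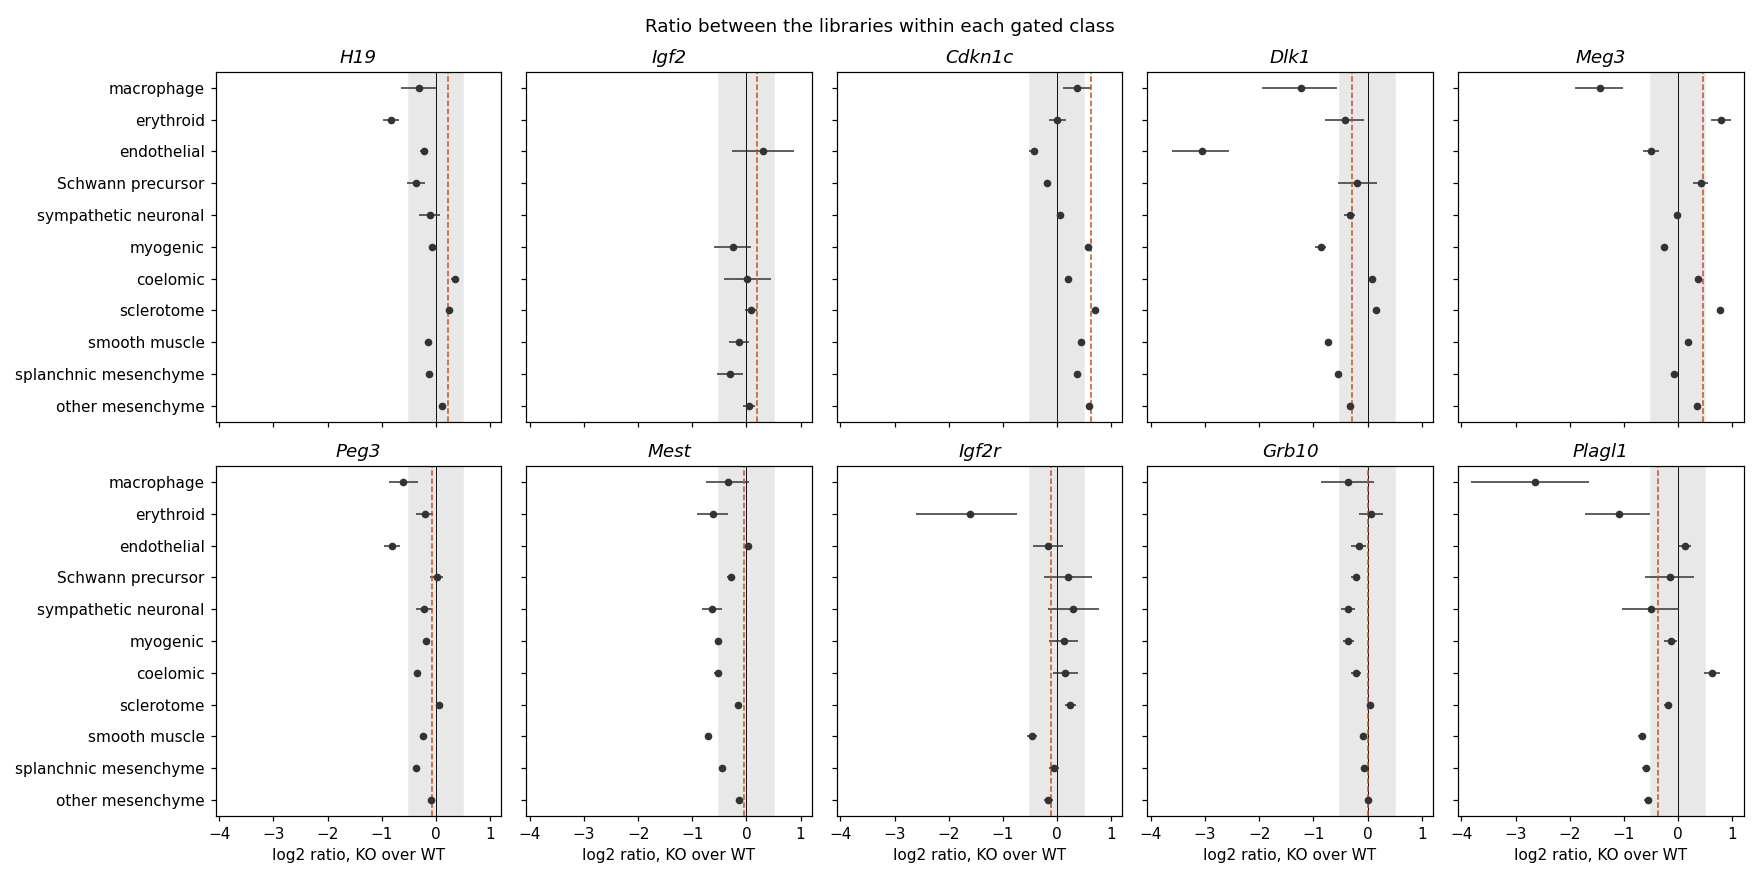
Log2 ratio of KO over WT for each member in the classes that could be compared, with exact 95% intervals for counting error. The grey band spans -0.5 to 0.5 and the dashed line is the ratio over all cells; Mest lies left of 0 in 10 of 11 classes and Cdkn1c right of 0 in 9 of 11.

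Smooth muscle held 3 members past the fold on the lower side, Dlk1, Mest and Plagl1, all paternally read. Of 11504 genes in that class 14.5% were past the fold, 860 of them on the lower side. There 0 of 5 paternally read and 2 of 5 maternally read members were higher in KO. In sclerotome 5 of 5 maternally read members were higher in KO, 2 of them past the fold, beside 12.1% of all genes there. Of its paternally read members 3 of 5 were higher in KO, none past the fold. Endothelium had 0 of 5 maternally and 3 of 5 paternally read members higher, and coelomic cells 4 of 5 and 3 of 5. Other mesenchyme had 4 of 5 and 1 of 5, myogenic cells 2 of 5 and 0 of 5, and splanchnic mesenchyme 1 of 5 and 0 of 5. Schwann precursors had 2 of 5 and 1 of 4, and sympathetic neuronal cells 2 of 5 and 0 of 4. The median log2 ratio over all genes was 0.02 in smooth muscle and 0.04 in sclerotome. Other transcripts differed between the libraries in the same classes, which need not hold like cells. In smooth muscle, its own markers outside the gate, Mylk, Smtn and Synpo2, summed to 124 CPM (WT) and 197 CPM (KO). Lum, Dcn and Postn summed there to 656 and 240 CPM, and the epithelial markers Pax2, Krt8 and Lhx1 to 76.1 and 10.1 CPM. In splanchnic mesenchyme Lum, Dcn and Postn gave 640 and 105 CPM, and the epithelial markers 86.3 and 15.0 CPM. In other mesenchyme Lum, Dcn and Postn gave 414 and 207 CPM. In sclerotome they were 157 and 161 CPM. Hemoglobin transcripts were lower in KO in each of these classes (317 and 115 CPM in smooth muscle, 379 and 179 CPM in sclerotome). The part of these differences in the member ratios was not tested. Leaving out every cell with a Barx1, Tlx1 or Nkx2-5 UMI, genes of stomach and spleen mesenchyme, left 7468 WT and 8044 KO cells and 27 pairs past the fold.

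Within the WT library, mesenchymal and sclerotome cells with a Pdgfrb UMI held more Plagl1 (231 against 137 CPM), Igf2r (113 against 68.5 CPM), Peg3 (1451 against 1059 CPM), Dlk1 (482 against 376 CPM) and Meg3 (947 against 761 CPM) than cells without. Cdkn1c (1133 and 1078 CPM), H19 (810 and 798 CPM) and Mest (748 and 801 CPM) were at similar levels in both. These groups pool classes that differ in Pdgfrb, at 115 CPM in WT smooth muscle and 33.1 CPM in WT sclerotome. Smooth muscle was also the class with the highest Igf2r. The part of class mix and of depth per cell in these differences was not tested.

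Of the other imprinted genes, 28 of a list of 30 were found, with a median log2 ratio of -0.05. Kcnq1ot1 and Nespas, the antisense RNA of the Gnas domain (20.3 and 30.1 CPM, 0.57), were past the fold on the higher side. Phlda2, Ascl2 (47 and 30 UMIs, -0.57) and Zrsr1 (6.87 and 4.82 CPM, -0.51) were past it on the lower side. Of 7 factors that keep imprints, Dppa3 was past the fold (1.63 and 2.36 CPM, 0.53). Over all genes 16.3% were past the same fold, so the counts of both lists lie near the background.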

How the data were processed

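Single-cell suspensions of E11 AGM were sequenced as 1 10x library per genotype. Per the labels, the authors used Cell Ranger 3.1.0 and mm10/GRCm38. They deposited unfiltered matrices of UMI counts per gene and barcode, with no normalization and no cell annotation. Cells, classes, sums and intervals were computed from those counts (Python 3.11.15, numpy 2.4.6, scipy 1.17.1, pandas 2.3.3) and the ratio was tested on simulated data. The members and the gene lists were chosen with earlier results of these data known. Cells reaching 3 gate genes in classes of different compartments (263 WT, 242 KO), tied cells (170, 132) and ungated cells (1191, 1143) were in no class. The first set was the treatment of doublets, and no doublet caller was run. Exactly 3 gate genes were detected in 545 of 1268 WT and 802 of 1975 KO sclerotome cells. In splanchnic mesenchyme it was 450 of 772 and 312 of 479 cells, and in myogenic cells 68 of 128 and 162 of 310. Antisense partners are separate genes in the counts, and the strand setting is not given in the sources used here. Positions are from GENCODE M21 and promoters from RefSeq. Genes named beside the members were those of each list past the fold, at most 3 per direction, and the 3 most similar profiles per member. Others (Malat1, Igf1, Igf1r, Cdkn1b, overlapping genes) were added after their values were seen. Alternatives on cells, gates, scaling, free RNA and fold were tried.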

Additional observations from a re-analysis of the deposited data

Results flagged for a closer look

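Meg3 and Plagl1 were past the fold in opposite directions in different classes outside blood. Meg3 had a log2 ratio of 0.77 in sclerotome and -0.50 in endothelium, where 4 of 84 KO cells held at least 50% of its UMIs. Plagl1 had 0.62 in coelomic cells and -0.66 in smooth muscle. With 1 library per genotype, these differences between classes were not tested.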

How the results depend on the processing

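The count of 1 member past the fold over all cells held under 10 of 13 settings. It was 0 when a log2 ratio of 1 was required. It was 2 for the mean of class ratios (Dlk1 -0.68 and Plagl1 -0.52, with Cdkn1c at 0.24). That mean includes Plagl1 in macrophages (-2.64) and erythroid cells (-1.09), and Dlk1 in endothelium (-3.06), which rested on few cells. The count was also 2 (Cdkn1c 0.63 and Meg3 0.80) when cells with a Pdgfrb UMI were left out of both libraries. That setting was chosen after seeing the data and left 5464 WT and 7364 KO cells. Since Pdgfrb is the deleted gene, the cells left are not alike. The 28 pairs past the fold became 6 at a log2 ratio of 1, and 20 to 29 under the other settings on all classes, 20 of 65 when under 5% mitochondrial UMIs were required and 3600 WT and 2915 KO cells were left. Outside blood, 6 of 19 pairs stayed past the fold in the same direction under every setting, 8 under some, and 5 turned under at least 1: Meg3 in endothelium, Dlk1 in myogenic cells, and Plagl1 in sympathetic neuronal cells, coelomic cells and other mesenchyme. Over all cells, Cdkn1c ranged from 0.56 to 0.89 and Meg3 from 0.39 to 0.80, each higher in KO throughout. The mean of class ratios, counted among the 12 settings, gave 0.24 and 0.05. H19, Igf2, Dlk1 and Plagl1 changed sign under 1 of 12 settings, Peg3, Mest and Igf2r under 2 and Grb10 under 5. For H19 and Igf2 that setting was the mean of class ratios. The causes were not tested. No paired analysis was possible because there was 1 library per genotype. The alternatives without Barx1, Tlx1 or Nkx2-5 cells and without the blood classes (19 of 88 pairs) were also chosen after seeing the data.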

Other observations

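The epithelial class was too small for a comparison, with 15 WT and 19 KO cells. Cdkn1c stood there at 402 and 1072 CPM, Meg3 at 88.0 and 264 CPM and Mest at 211 and 441 CPM, as values only. In KO, the cell richest in each gene held 64.0% of the Cdkn1c, 61.2% of the Meg3 and 50% of the Mest UMIs of the class.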
